A study of Rattus norvegicus with 60 samples.

Results

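The comparison covered 20 of the 60 arrays of the study: the 10 prefrontal cortex arrays taken at postnatal day 21 (P21) and the 10 taken at postnatal day 7 (P7). They were chosen by region and age alone, and each age held 5 arrays of the HR line and 5 of the LR line. HR and LR are selectively bred rat lines on a Sprague-Dawley background that are known for differing in novelty response and in anxiety- and depression-like behaviour. All animals were male and no drug or other treatment is given in the labels, so the 4 groups were HR at P7, LR at P7, HR at P21 and LR at P21. The 10 prefrontal arrays taken at postnatal day 14 (P14) were left out of the comparison, and the 30 amygdala arrays were not used. RNA came from dissected tissue and was hybridised as Cy3-labelled cDNA to single-colour NimbleGen arrays. The question the comparison answers is which transcripts differ between the neonatal and the weanling prefrontal cortex over both lines, and whether the lines differ in that step.

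In the rat, the period between these ages is known as the one in which cortical neurons finish extending axons and dendrites, most oligodendrocytes mature and begin to wrap axons with myelin, astrocytes and microglia take on their mature forms, and inhibitory interneurons acquire their adult peptide and calcium-binding proteins. Neural progenitors and glial precursors divide less as this goes on, and the brain turns from the ketone bodies of a milk diet to oxidising glucose.

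Values are normalized intensity on a linear scale, and differences are log2 of P21 over P7, given with the standard error (SE) of the fit and with 10 arrays per age. The median row of the table had an intensity of 73.8, and a control row of random sequence lay between 45.6 and 54.6 on the prefrontal arrays. No detection flags come with the table, so rows close to these values carry little information on level. This held for several genes that define neurons or dividing cells. Arrays of Snap25, the synaptic membrane fusion protein, lay between 60.7 and 176, those of the NMDA receptor subunit gene Grin1 between 41.0 and 80.5, those of the doublecortin gene Dcx between 45.5 and 131 and those of the proliferation marker Mki67 between 49.3 and 116. The dissection protocol of these samples names the amygdala, while the labels for source and brain region name the prefrontal cortex. The vesicular glutamate transporter gene Slc17a7, a marker of cortical projection neurons, did not settle this, because it lay between 35.2 and 162.

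Arrays within a group correlated at a median r of 0.944 on the log2 scale, with a lowest value of 0.837. A common axis of variation within groups held 26.7% of the within-group variance, and arrays 1 and 5 (HR, P21) and 22 and 24 (HR, P7) lay farthest out on it. The array numbers in the column names follow age. Arrays 1 to 10 were P21, 11 to 20 were P14 and 21 to 30 were P7, so array number and age cannot be told apart within the 20 arrays. The P14 arrays gave 1 view of this. Arrays 11 and 12 of the HR P14 group differed from arrays 13, 14 and 15 of the same group in 1837 of 18564 rows (9.9% called, limma adjusted p under 0.05, a split chosen after the values were seen). Of the 1940 rows called between P21 and P7, 1384 differed in the same direction between these sets of HR P14 arrays, 431 of them also past the threshold. Over all rows, this HR P14 difference correlated with the P21 minus P7 difference at an r of 0.23. Runs of 12 consecutive array numbers were then taken as a block, with the P14 arrays in the fit. In that fit 11 rows were called (0.0593%), 1 higher (0.00539%) and 10 lower (0.0539%). The median SE of a row rose from 0.18 to 0.49. Arrays 11 and 12 against 13 to 15 (HR, P14) tie the first run to the second. Arrays 21 to 24 against array 25 (HR, P7) tie the second to the third. Each LR group lies within 1 run, so the LR step is adjusted by run differences taken from HR arrays alone. The runs of 12 are an assumption and are not given in the labels. Of the 1134 rows called higher, 663 kept their sign in that fit, as did 536 of the 806 called lower. Values from this fit are called run-block values below and are given for described genes where they change the direction of a call or still pass the threshold.

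Between P7 and P21, 1940 of 18564 rows were called at an adjusted p under 0.05 (10.5%), 1134 of them higher at P21 (6.11%) and 806 lower (4.34%). The excess of increases depended on the scaling, with 934 higher and 934 lower under quantile normalization and 1009 against 908 with the arrays centred on their medians. The median difference of all rows was 0.04. A change of over 2-fold was found in 361 of the rows called higher and 326 of those called lower. On 53 rows all 10 P21 arrays lay above all 10 P7 arrays (0.285%), and on 65 rows all lay below (0.35%). Without the 5 arrays that limma's array weights ranked lowest (1, 2, 21, 22 and 24), 1263 rows were called higher and 1032 lower, and 1505 of the 1940 calls were kept. Counting 1 row per gene, 1022 of 16569 genes were called higher (6.17%) and 721 lower (4.35%), and the gene lists that follow are read against these shares. The arrays are not tied to animals in the labels beyond 5 per line and age, so the p-values measure the spread between these arrays. The column names carry sample codes whose meaning is not given, with 13 different prefixes on the 20 arrays. Within a group 10 arrays shared a prefix with another array, and 2 whole codes occurred at both ages. With the prefix as a random block, chosen after seeing the data, the estimated correlation was -0.11 and 2078 rows were called. The lead genes are 14 called genes in each direction, from among the 15 with the largest difference that have a settled symbol and a mean above the median row at the brighter age.

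**Figure D1:**
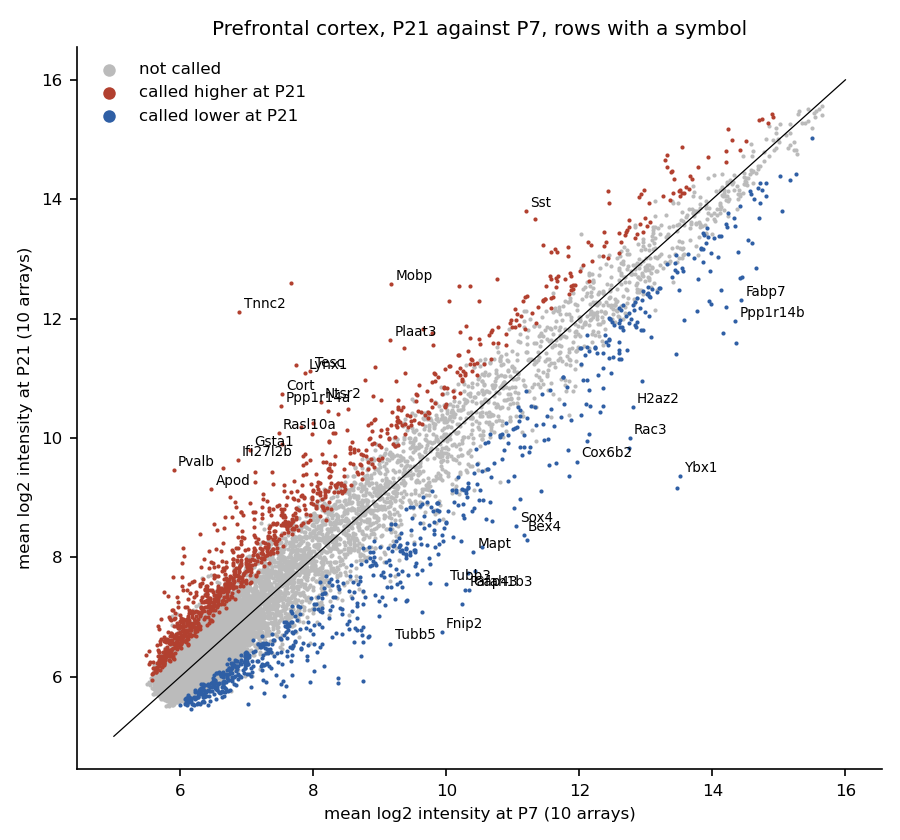
Mean log2 intensity of every row with a symbol at P7 (horizontal axis, 10 arrays) and at P21 (vertical axis, 10 arrays), with rows called higher at P21 in red, rows called lower in blue and the line of equality in black. The 14 lead genes that rose and the 14 that fell are labelled, with Tnnc2 and Pvalb farthest above the line among them and Ybx1 farthest below it.

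The myelin gene Mobp was among the largest increases. In bulk tissue, more cells of a type and more RNA per cell cannot be told apart, here and in the groups that follow. Mobp, which encodes a structural protein of the compact sheath, lay between 262 and 3499 at P7 with a median of 431 and between 968 and 14225 at P21 with a median of 6766, a rise of 3.41 ± 0.43 (SE, limma adjusted p = 1.51e-05). Array 29 (LR) gave the highest P7 value, and 9 of 10 P21 arrays exceeded it.

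Of 24 measured genes of the list for myelin and mature oligodendrocytes, 7 rose, 1 fell and 16 were not called, with a median difference of 0.27 against 0.04 over all genes. Mbp, the basic protein that compacts the sheath, rose by 1.82 ± 0.30 (adjusted p = 0.000318), and all 4 of its rows were called higher. Aspa, which breaks down N-acetylaspartate in oligodendrocytes, went from a median of 53.2 at P7 to 122 at P21 without overlap of the ages, and the carbonic anhydrase gene Car2 from 145 to 316, also without overlap. Their rises were 1.27 ± 0.15 and 1.12 ± 0.14 (adjusted p = 8.05e-06 and 1.29e-05). Cldn11, the tight junction protein of myelin, rose by 1.12 ± 0.26. The member that fell was Qdpr, a dihydropteridine reductase, at -1.45 ± 0.43 (adjusted p = 0.0302), which was named after its value was seen. The summed intensity of the list ran from 2707 to 10770 on the P7 arrays and from 4811 to 27512 on the P21 arrays. Its median was 0.05 in the run-block fit, where Mobp stood at 2.48 ± 1.06.

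Of 11 measured genes of oligodendrocyte precursors, 1 rose and 0 fell, a share of 9.09% higher against 6.17% of all genes. The one that rose, the sialidase gene Neu4, did so by 0.61 ± 0.19 (limma adjusted p = 0.0401) and was at -0.65 in the run-block fit. The proteoglycan gene Cspg4 differed by -0.10 ± 0.12 and Olig1, a transcription factor of the lineage, by 0.16 ± 0.29 and neither was called. Their medians were 57.2 and 60.2 at P7 and 55.2 and 70.3 at P21. Cholesterol, the main lipid of myelin, is made in the brain itself. Of 23 measured genes of its synthesis 0 rose and 1 fell (4.35% lower, against 4.35% of all genes). The one that fell was the farnesyl diphosphate synthase gene Fdps, at -0.88 ± 0.27 (limma adjusted p = 0.0388).

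Several peptides and a calcium-binding protein of inhibitory interneurons rose as well. Pvalb, the calcium buffer of fast-spiking basket cells, lay between 31.1 and 100 at P7 with a median of 60.04, and between 301 and 1950 at P21 with a median of 665. The ages did not overlap, and the difference was 3.55 ± 0.31 (adjusted p = 2.55e-07). Sst, the somatostatin gene of another large class of interneurons, had P7 values of 1215 to 3449 with a median of 2348, and P21 values of 2169 to 27765 with a median of 17143. It rose by 2.60 ± 0.34 (adjusted p = 2.41e-05), and array 2 (HR) was the only P21 array within the P7 range. Cort, whose product cortistatin resembles somatostatin and is made by some of the same cells, rose 9.18-fold (adjusted p = 1.13e-06).

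Among 23 measured interneuron genes, 6 rose, 1 fell and 16 were not called, with a median difference of 0.28. Npy, the neuropeptide Y gene, went from 10208 to 14710 at P7 to 16672 to 35741 at P21, without overlap, a rise of 1.33 ± 0.13 (adjusted p = 1.12e-06). Cck, the cholecystokinin gene, which cortical pyramidal cells also express, rose by 1.42 ± 0.17 (adjusted p = 1e-05), with 9 of 10 P21 arrays above every P7 array. Vip, of the cells that inhibit other interneurons, rose by 1.10 ± 0.20 (adjusted p = 0.000945) and stood at -0.83 ± 0.59 in the run-block fit. The member that fell was the calretinin gene Calb2, at -0.92 ± 0.29 (adjusted p = 0.0420), named after its value was seen. The list's summed intensity lay between 22794 and 31563 at P7 and between 46516 and 100428 at P21, which do not overlap. Bright members such as Npy and Sst carry much of this sum, so it says little about the dimmer genes. The list's run-block median was -0.06.

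Lynx1, a membrane-anchored partner of nicotinic receptors that is known in mice as a brake on plasticity of the mature visual cortex, rose by 3.21 ± 0.29 (adjusted p = 3.76e-07). Its P7 values ran from 96.1 to 594 and its P21 values from 1302 to 2999. The shares called higher among the genes of GABA receptors and transport (6.67%), glutamate receptors (6.67%) and synaptic vesicles (3.7%) were near or below the 6.17% of all genes. Of 15 measured genes of GABA receptors, transport and chloride handling 1 rose, which was Gabarapl1, a membrane trafficking and autophagy protein, at 1.27 ± 0.27 (adjusted p = 0.00286). Its run-block value was -0.07. Slc12a5, the chloride exporter whose rise makes GABA inhibitory, differed by -0.03 ± 0.16 (adjusted p = 0.949) and lay between 42.7 and 104.

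Of 30 measured glutamate receptor and postsynaptic genes 2 rose, the AMPA receptor subunit gene Gria1 by 0.71 ± 0.16 (adjusted p = 0.00378) and Neto1, an auxiliary subunit of kainate receptors, by 0.51 ± 0.13 (adjusted p = 0.0150). The NMDA receptor subunit gene Grin2a, which becomes more abundant as cortical synapses mature, differed by 0.37 ± 0.14 (adjusted p = 0.104) with intensities of 35.4 to 84.2. Of 27 synaptic vesicle genes 1 rose, Napa, an adaptor of membrane fusion, at 0.56 ± 0.17 (adjusted p = 0.0340), with a run-block value of -0.60. Voltage-gated channel genes had 7 of 46 higher and 0 lower (15.2% higher against 6.17% over all genes). The largest of these was Kcna1, an axonal potassium channel, whose median went from 586 to 2132, a rise of 1.72 ± 0.27 (adjusted p = 0.000143). The sodium-activated potassium channel gene Kcnt1 rose by 0.77 ± 0.17 and the inward rectifier gene Kcnj4 by 0.85 ± 0.20. Kcnv1, a modifier of potassium channels, rose by 1.10 ± 0.27 and was at -0.41 in the run-block fit, and the calcium channel genes Cacna1h and Cacna1b rose by 1.17 ± 0.36 and 0.70 ± 0.22. The count of 7 fell to 4 when array 7, array 23, array 25, array 29 or array 30 was left out.

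Of 18 genes of cortical layers and excitatory neurons, 3 rose and 2 fell. Nrgn, the calmodulin-binding protein neurogranin of spines, had P7 values of 63.8, 166 and 246 (lowest, median and highest) and P21 values of 69.6, 930 and 2212. It rose by 2.30 ± 0.42 (adjusted p = 0.00075), with 8 of 10 P21 arrays above every P7 array, and turned to -0.70 ± 1.14 in the run-block fit. Pcp4, another calmodulin regulator, rose by 1.55 ± 0.25 and Slc17a7 by 0.70 ± 0.21. Rprm fell by 1.57 ± 0.36 on the log2 scale and Bcl11b, a transcription factor of deep-layer projection neurons, by 0.72 ± 0.23. Of 14 genes of perineuronal nets and brain proteoglycans, the matrix that encloses many Pvalb cells, 0 rose and 1 fell (7.14% against 4.35% of all genes). This was Sema3a, a guidance protein bound in the nets, at -0.45 ± 0.14 (adjusted p = 0.0352), while the link protein gene Hapln1 differed by 0.59 ± 0.19 (adjusted p = 0.0540) and the aggrecan gene Acan by -0.15 ± 0.15.

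Of 24 measured astrocyte genes 8 rose and 0 fell, with a median of 0.34. Clu, a secreted chaperone, had P7 values between 296 and 1431 with a median of 423 and P21 values between 756 and 2657 with a median of 1927. It rose by 1.81 ± 0.26 (adjusted p = 5.25e-05), and 8 of 10 P21 arrays lay above every P7 array. The cystatin gene Cst3 rose by 1.35 ± 0.21, the angiotensinogen gene Agt by 1.18 ± 0.22, the calcium-binding protein gene S100b by 1.96 ± 0.41 and the glutamate transporter gene Slc1a2 by 0.89 ± 0.21. Slc1a2 stood at 0.02 in the run-block fit. For Sox9, a transcription factor of astrocytes, 1 row rose by 1.37 ± 0.31 and the other was at 0.38 and not called. Aldh1l1, a common astrocyte marker, differed by -0.43 ± 0.21 (adjusted p = 0.204) and the water channel gene Aqp4 by 0.38 ± 0.14 (adjusted p = 0.0795). Ntsr2, a neurotensin receptor found on astrocytes, was among the 15 largest increases at 2.49 ± 0.25 (adjusted p = 1.20e-06).

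Microglial genes had 7 of 15 measured higher, 1 lower and a median of 0.51, and their summed intensity was 1666 to 3160 at P7 and 2305 to 7850 at P21. C1qb, a chain of the complement component that microglia place on synapses, had P7 values of 64.9, 106 and 291 (lowest, median and highest) and P21 values of 78.2, 569 and 1140, a rise of 2.27 ± 0.31 (adjusted p = 4.30e-05). Array 1 (HR) held the lowest P21 value, and the other 9 lay above every P7 array. The other chains moved the same way, C1qa by 1.61 ± 0.27 and C1qc by 1.13 ± 0.20, with run-block values of 0.82, 0.03 and -0.25 for C1qa, C1qb and C1qc. The protease gene Ctss rose by 2.27 ± 0.35, the adaptor gene Tyrobp by 1.66 ± 0.22 and Aif1, which encodes the marker Iba1, by 1.65 ± 0.30, although Aif1 stood at -0.55 in the run-block fit. Cx3cr1 and Csf1r, receptors that define the cell type, differed by 0.51 ± 0.19 and 0.35 ± 0.20 and were not called. Tmem119, which marks mature microglia, fell by 0.56 ± 0.17 on the log2 scale (adjusted p = 0.0392, named after its value was seen) at intensities of 33.4 to 167.

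Genes of antigen presentation and complement rose in 5 of 13 cases with 0 lower. B2m, the light chain of MHC class I, lay between 3804 and 7412 at P7 and between 9284 and 30367 at P21, without overlap, a rise of 1.49 ± 0.17 (adjusted p = 5.34e-06). The interferon-induced genes Ifitm3 and Psmb8 rose by 1.86 ± 0.24 and 1.14 ± 0.25, the MHC class II gene RT1-Da by 0.94 ± 0.17, and the MHC class I gene RT1-A2 by 1.55 ± 0.35, with a run-block value of -0.63. Ifi27l2b, another interferon-inducible gene and among the 15 largest increases, rose by 2.76 ± 0.29 (adjusted p = 1.74e-06) without overlap of the ages. It was also 2.67 higher on HR P14 arrays 11 and 12 than on arrays 13 to 15, and its run-block value was -0.27 ± 0.79.

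Of the lists described, the one with the most genes higher was oxidative phosphorylation, the chain of mitochondrial complexes that oxidises NADH and makes ATP. Of 53 measured genes 27 rose, 0 fell and 26 were not called, with a median of 0.54, and 48 of the 53 differences were above 0. By complex, 14 of 21 genes of complex I rose, 1 of 7 of complex III, 6 of 9 of complex IV and 6 of 15 of complex V, while the cytochrome c gene did not pass the test. Ndufb9, an accessory subunit of complex I, had P7 values of 2313, 3258 and 3872 (lowest, median and highest) and P21 values of 5375, 10026 and 11811. The ages did not overlap, and it rose by 1.53 ± 0.14 (adjusted p = 4.68e-07).

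The complex I genes Ndufs7, Ndufc2 and Ndufa1 rose by 1.08 ± 0.17, 1.09 ± 0.18 and 1.19 ± 0.20, and the complex IV genes Cox4i1 and Cox7b by 1.09 ± 0.17 and 1.22 ± 0.20. Ndufc2 stood at -0.13 in the run-block fit. Other subunits were not called. Atp5f1b, the catalytic subunit of ATP synthase, differed by -0.97 ± 0.49 (adjusted p = 0.230) and Ndufv1, which holds the NADH site of complex I, by 0.23 ± 0.22 (adjusted p = 0.587). Without the 5 arrays of lowest weight, 20 of the 53 rose, and in the run-block fit the median of the list was -0.10. The 38 measured members of the list for glycolysis and the citric acid cycle had 2 higher and 1 lower, a share of 5.26% higher that was close to the 6.17% of all genes. These were the succinate dehydrogenase gene Sdhd at 0.73 ± 0.16, the malate dehydrogenase gene Mdh1 at 0.68 ± 0.20 and the isocitrate dehydrogenase gene Idh3g at -0.82 ± 0.26, all of which changed sign in the run-block fit (-0.42, -0.48 and 0.68). Of 17 genes for the use of ketones, lactate and fatty acids, 0 were called.

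**Figure D2:**
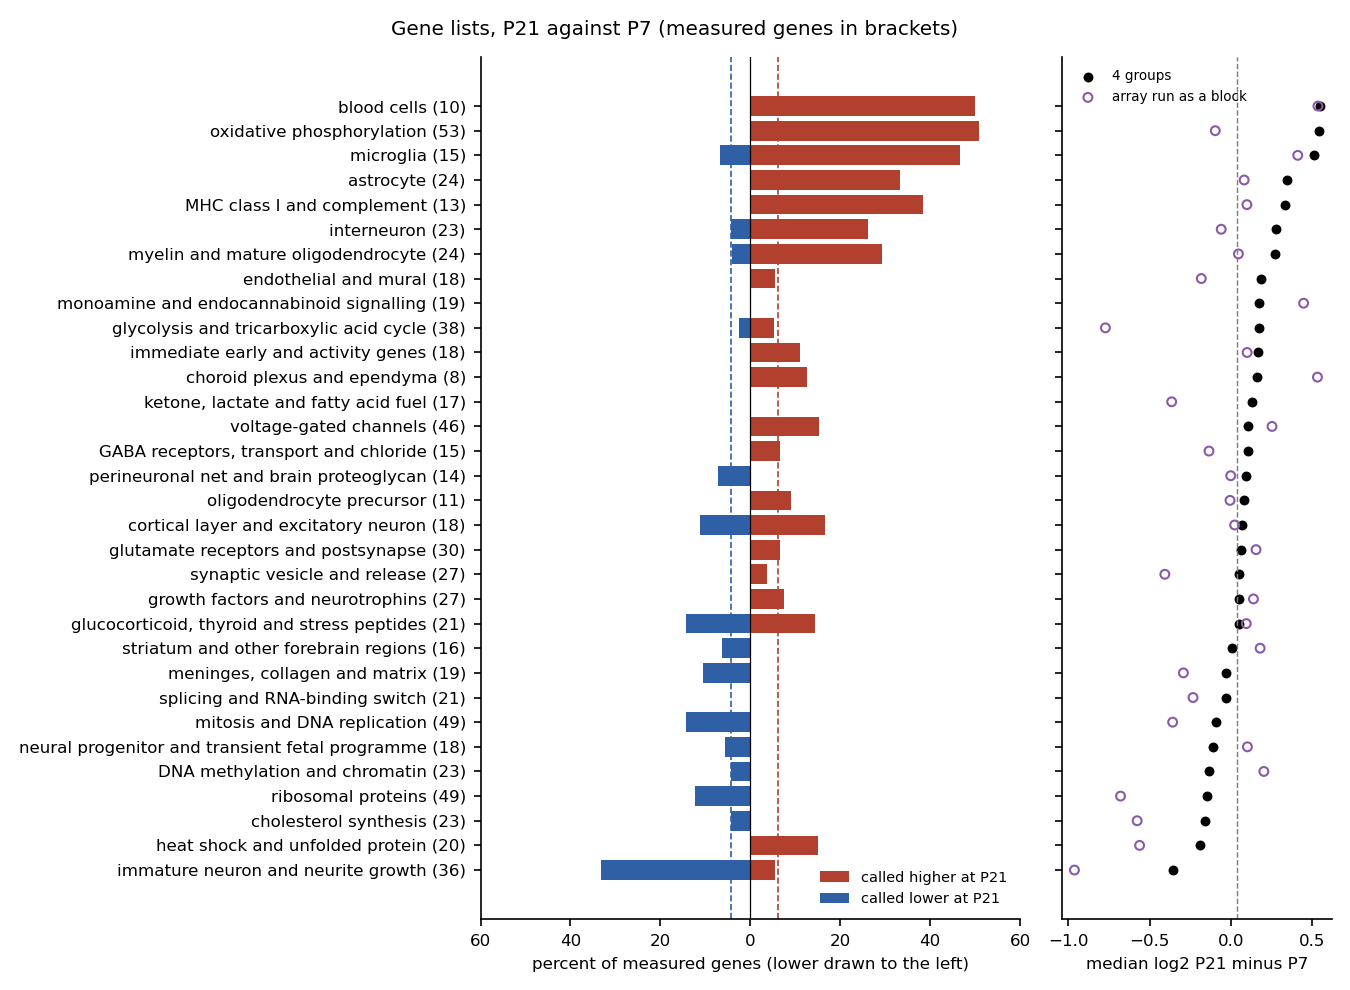
Left, the percent of measured genes of each list that were called higher (red, to the right) or lower (blue, to the left) at P21, with dashed lines at the shares over all genes (6.17% and 4.35%). Right, the median log2 difference of each list in the fit of the 4 groups (filled) and in the run-block fit (open), which for oxidative phosphorylation moved from 0.54 to -0.10 and for immature neurons from -0.35 to -0.96.

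Genes of immature neurons and growing neurites had the most members lower of the lists described. Of 36 measured, 12 fell, 2 rose and 22 were not called, with a median of -0.35, and 12 also fell without the 5 arrays of lowest weight. Gap43, a membrane protein of growth cones, had P7 values of 546, 1323 and 5019 (lowest, median and highest) and P21 values of 52.3, 191 and 439. It fell by 2.89 ± 0.41 on the log2 scale (adjusted p = 4.87e-05) and the ages did not overlap. At P14 its median was 175.

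Sox4, a transcription factor of newborn neurons, fell by 2.51 ± 0.31 on the log2 scale (adjusted p = 9.78e-06), from P7 values of 1073 to 3185 to P21 values of 62.0 to 901, while its dimmer second row differed by -0.24 and was not called. Tubb3, the neuronal tubulin, went from a median of 984 to 193 and fell by 2.44 ± 0.40 (adjusted p = 0.000254), with array 24 (HR, P7) at 7194, far above the other arrays. Stmn1, which destabilises microtubules, fell by 2.05 ± 0.30 (adjusted p = 7.40e-05) and remained past the threshold in the run-block fit at -4.39 ± 0.89 (adjusted p = 0.0499). Tmsb10, an actin-binding peptide, fell by 1.28 ± 0.20. The members that rose were Dclk1, a doublecortin-like kinase, at 1.49 ± 0.22 (adjusted p = 7.75e-05) and the small GTPase gene Rnd2 at 1.38 ± 0.41 (adjusted p = 0.0321), of which Rnd2 was named after its value was seen and stood at -0.51 in the run-block fit. Sox11 fell by 0.58 ± 0.17 from a median of 71.4 that already lay near the median row, and Dcx differed by -0.22 ± 0.18.

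Other genes of varied roles also stood among the 15 largest decreases. Pafah1b3, a catalytic subunit of the brain enzyme that inactivates platelet-activating factor, had the smallest p of these. Its P7 values were 809, 1328 and 1710 (lowest, median and highest) and its P21 values 112, 172 and 259, a fall of 2.83 ± 0.16 on the log2 scale (adjusted p = 1.16e-10) without overlap of the ages. It also passed in the run-block fit, at -3.73 ± 0.48 (adjusted p = 0.000256). Bex4, of a family of small proteins expressed in brain, fell by 2.79 ± 0.29 (adjusted p = 1.27e-06) and passed there too, at -4.83 ± 0.85 (adjusted p = 0.0176). The other rows that passed in that fit included 7 named genes outside the rule for named genes, among them Slc10a4 at -2.69, Kifc1 at -2.63 and LOC686222 at 3.75, all named after their values were seen. LOC686222 was the row called higher, and it differed by -0.50 without the block and was not called there. Kifc1 differed by -0.48 without the block and was not called either. The rest of these 7 genes were also called lower without the block, Slc10a4 at -1.12 (limma adjusted p = 0.000788).

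Rac3, a small GTPase of the Rac family, fell by 2.76 ± 0.37 on the log2 scale, the tubulin gene Tubb5 by 2.61 ± 0.53 and Mapt, which encodes the microtubule protein tau, by 2.31 ± 0.31. Array 24 held the highest Tubb5 value at 13873, against a P7 median of 392. Without the 5 arrays of lowest weight Tubb5 was at -2.06 and still called. Ppp1r14b, an inhibitor of protein phosphatase 1, fell by 2.38 ± 0.44 and Cox6b2, an isoform of a complex IV subunit known from testis, by 2.37 ± 0.26. Cox6b2 went from a median of 4179 at P7 to 3699 at P14 and 796 at P21.

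Ybx1, which encodes a protein that binds messenger RNA and DNA, had the largest decrease. Its P7 values were 3619, 10262 and 46968 (lowest, median and highest), its P21 values 366, 499 and 4875, and its P14 median was 405. It fell by 4.17 ± 0.45 on the log2 scale (adjusted p = 2.24e-06), with 9 of 10 P21 arrays below every P7 array, and its second row was at -4.29. H2az2, a histone variant, fell by 2.29 ± 0.48 (adjusted p = 0.00278), although 2 of 10 P21 arrays alone lay below every P7 array. Of 23 genes of DNA methylation and chromatin 0 rose and 1 fell (4.35% lower, against 4.35% of all genes). The one that fell was the remodeller gene Smarca4, at -1.81 ± 0.55 (limma adjusted p = 0.0366). Of 49 ribosomal protein genes 0 rose and 6 fell (12.2% against 4.35% of all genes), with a median of -0.14. Among the 6 were Rps19 at -0.79 ± 0.17 without overlap of the ages and Rpsa at -1.63 ± 0.35. Of 21 splicing genes 0 were called.

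Fnip2 also stood among the 15 largest decreases, and its values followed the array number. This gene, a partner of folliculin in nutrient sensing, had P7 values of 227 to 1773 and P21 values of 43.2 to 219. It fell by 3.19 ± 0.35 on the log2 scale (adjusted p = 2.45e-06), but arrays 11 and 12 of HR P14 minus arrays 13 to 15 gave -3.76 (adjusted p = 0.00102), with a run-block value of 0.97 ± 0.89. Every array numbered up to 12 lay below every later array.

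**Figure D3:**
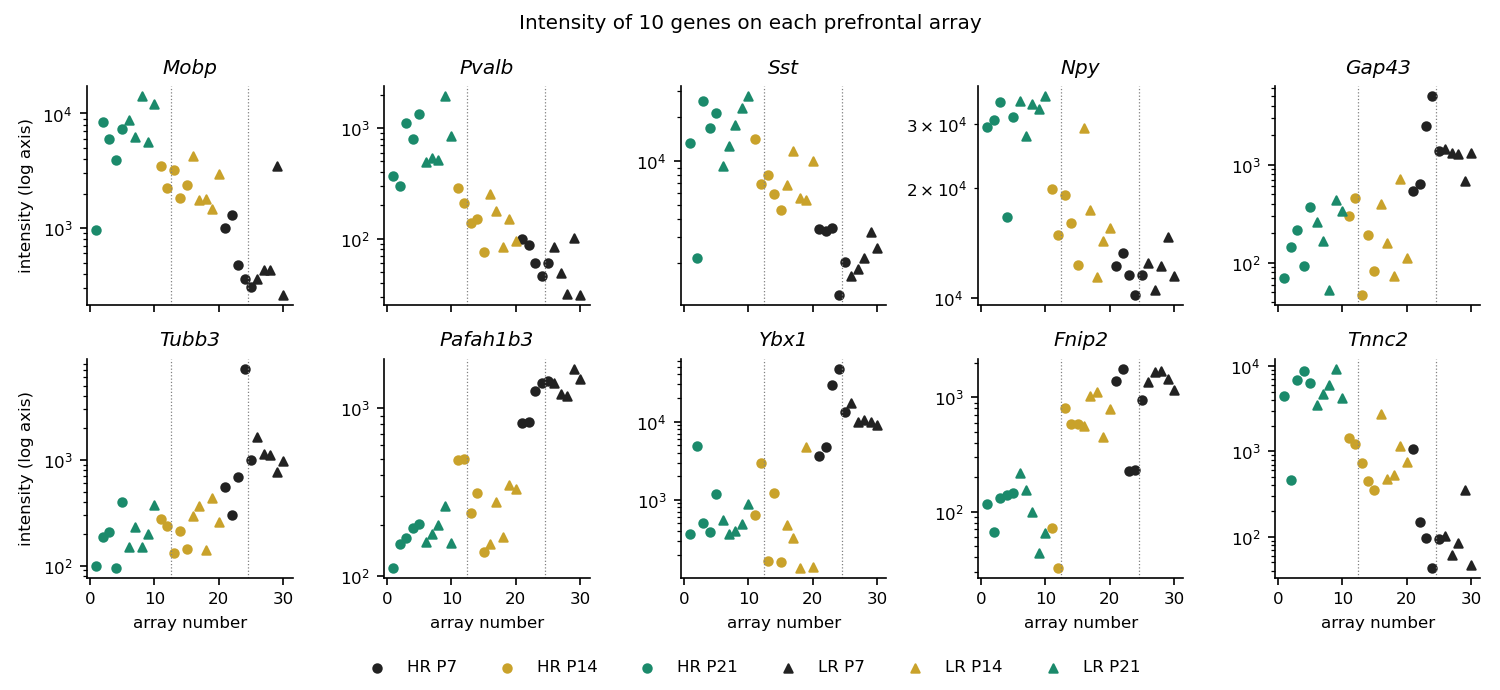
Intensity (log axis) of 10 genes on each of the 30 prefrontal arrays in order of array number, with circles for HR, triangles for LR and colour for age; dotted lines mark the assumed runs of 12 arrays. Pvalb, Npy and Pafah1b3 separate P7 from P21 without overlap, and Fnip2 is low on arrays 1 to 12, HR P14 arrays 11 and 12 included, and higher on the later ones.

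Of 49 measured genes of mitosis and DNA replication, 0 rose and 7 fell (14.3% against 4.35% of all genes), with a median of -0.09, and 6 fell without the 5 arrays of lowest weight. Lig1, the ligase that joins Okazaki fragments, had P7 values of 3689, 4877 and 9286 (lowest, median and highest) and P21 values of 395, 1481 and 3183. It fell by 1.81 ± 0.27 on the log2 scale (adjusted p = 8.96e-05) without overlap, and its second row was at -1.42. The other members were dimmer. Ube2c, an enzyme of the anaphase-promoting complex, went from a median of 295 to 131, the complex's activator Cdc20 from 144 to 94.5, Cdca8 of the chromosomal passenger complex from 105 to 52.2, the cytokinesis gene Anln from 84.4 to 46.3 and the replicative helicase gene Mcm6 from 100 to 57.7. These fell by 0.99 ± 0.21, 0.63 ± 0.16, 0.73 ± 0.18, 0.71 ± 0.13 and 0.74 ± 0.19 on the log2 scale. Mki67 differed by 0.08 ± 0.15 at intensities close to the median row.

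Many cell cycle genes are known to carry CCAAT boxes and the element TTTGAA or TTTAAA upstream of their start sites. The 250 bases upstream of the annotated start were read from the RefSeq promoter table (GRCr8, strand of the gene) and searched on both strands for CCAAT and for TTTGAA or TTTAAA. Of 39 measured mitotic genes with a window, 24 held CCAAT (61.5%, against 34.3% of 27457 genes) and 24 held TTTGAA or TTTAAA (61.5%, against 25.3%). Windows of 3 of the 4 decreasing genes with the smallest p that had one are shown because they hold these letters, in capitals, and that of Lig1 held neither. Cdca8 held CCAAT 4 times, of which 1 shares a base with its TTTGAA, Cdc20 held it 2 times beside 1 TTTGAA, and Anln held TTTGAA 2 times and CCAAT 0 times.
Cdca8, chr5:142483200-142483449, minus strand: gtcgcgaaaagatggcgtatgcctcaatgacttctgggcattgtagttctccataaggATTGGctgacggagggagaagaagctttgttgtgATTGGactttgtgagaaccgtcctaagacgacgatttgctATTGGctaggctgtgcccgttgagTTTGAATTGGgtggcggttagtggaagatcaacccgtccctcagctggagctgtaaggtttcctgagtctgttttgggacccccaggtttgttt
Cdc20, chr5:137255800-137256049, minus strand: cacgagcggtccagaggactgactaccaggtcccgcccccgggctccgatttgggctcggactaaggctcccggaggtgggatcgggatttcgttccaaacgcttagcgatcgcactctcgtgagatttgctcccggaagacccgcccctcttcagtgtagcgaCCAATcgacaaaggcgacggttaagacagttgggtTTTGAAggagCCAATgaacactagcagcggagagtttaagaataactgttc
Anln, chr8:29197514-29197763, minus strand: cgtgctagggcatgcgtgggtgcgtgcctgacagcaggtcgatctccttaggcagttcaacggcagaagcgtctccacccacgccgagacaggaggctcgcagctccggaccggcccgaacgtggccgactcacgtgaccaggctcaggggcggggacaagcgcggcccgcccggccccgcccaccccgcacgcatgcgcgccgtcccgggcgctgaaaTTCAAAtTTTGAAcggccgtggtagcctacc
These letters are a description of the windows and were not tested against the differences.

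Of 18 genes of neural progenitors and the transient fetal programme, 0 rose and 1 fell (5.56% against 4.35% of all genes). This was Fabp7, the brain lipid-binding protein of radial glia and young astrocytes, with P7 values of 8718, 27120 and 30384 (lowest, median and highest) and P21 values of 2425, 4828 and 9779. It fell by 2.12 ± 0.26 on the log2 scale (adjusted p = 8.13e-06), with 8 of 10 P21 arrays below every P7 array, and its P14 median of 4817 was close to that of P21. The intermediate filament genes Vim and Nes differed by -0.84 ± 0.32 and -0.32 ± 0.17 and Sox2 by -0.19 ± 0.28, none of them called.

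Stress peptides and hormone genes moved in both directions, with 3 of 21 higher and 3 lower (14.3% each, against 6.17% and 4.35% of all genes). Crh, the corticotropin-releasing hormone gene, had P7 values of 66.5, 97.4 and 171 and P21 values of 143, 227 and 337, a rise of 1.15 ± 0.16 (adjusted p = 5.22e-05) with 8 of 10 P21 arrays above every P7 array. Crhr1, its receptor, fell by 0.59 ± 0.16 on the log2 scale from a median of 69.6, and Adcyap1, the gene of the peptide PACAP, fell by 1.23 ± 0.24. Rbm3, a cold-inducible RNA-binding protein, fell by 1.07 ± 0.26, while Hsd11b1, which regenerates active glucocorticoid, and the thyroid hormone deiodinase gene Dio3 rose by 0.93 ± 0.27 and 0.74 ± 0.20. Dio3 lay between 43.2 and 61.2 on the LR P7 arrays, near the control row. Of 27 growth factor genes 2 rose, a share of 7.41% that was near the 6.17% of all genes. These were Bdnf, by 0.87 ± 0.15 (limma adjusted p = 0.000472) from a median of 71.7 to 125, and the midkine gene Mdk, by 0.92 ± 0.27. Of 18 immediate early genes 2 rose, Gadd45b by 1.36 ± 0.18 and Btg2 by 0.64 ± 0.15, whereas Egr1 and Arc differed by 0.08 ± 0.14 and -0.03 ± 0.18. Of 19 monoamine and endocannabinoid genes 0 were called.

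Of 20 heat shock and unfolded protein genes 3 rose (15% against 6.17% of all genes) and 0 fell, although the median of the list was -0.19. These were the small heat shock protein genes Hspb1, at 1.66 ± 0.22, and Cryab, 4.28-fold higher, and the transcription factor gene Ddit3 at 1.45 ± 0.20, of which Ddit3 stood at -0.35 in the run-block fit. Mature oligodendrocytes also express Cryab. The chaperone gene Hspa8 differed by -0.87 ± 0.57 and was not called, with array 24 at 5731 against a P7 median of 207.

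The largest increase of all named genes was that of Tnnc2, which encodes troponin C of fast skeletal muscle. Its P7 values were 43.2, 95.5 and 1054 (lowest, median and highest), its P14 median was 737 and its P21 values were 459, 5299 and 9254. It rose by 5.22 ± 0.53 (adjusted p = 1.12e-06), with 9 of 10 P21 arrays above every P7 array. Of 8 other measured skeletal muscle genes, a list made after this value was seen, 1 rose, the tropomyosin gene Tpm2 at 0.73 ± 0.21 (adjusted p = 0.0235). Tpm2 had a run-block value of -0.87 and was 1.59 higher on HR P14 arrays 11 and 12 than on arrays 13 to 15 (adjusted p = 0.0141). Without the 5 arrays of lowest weight it was not called (adjusted p = 0.0713). The myosin gene Myh4, the creatine kinase gene Ckm and the troponin genes Tnni2 and Tnnt3 lay between 40.0 and 123 on all 20 arrays, near the control row. The remaining lead genes that rose were Tesc, a calcium-binding protein, at 3.16 ± 0.25, the phosphatase inhibitor gene Ppp1r14a at 3.02 ± 0.39, the glutathione transferase gene Gsta1 at 2.75 ± 0.26, the apolipoprotein gene Apod at 2.67 ± 0.34, the Ras-like gene Rasl10a at 2.60 ± 0.27 and the phospholipase gene Plaat3 at 2.49 ± 0.24. Of these, Ppp1r14a stood at 0.05 ± 0.95 in the run-block fit and Rasl10a at 0.41 ± 0.74.

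**Figure D4:**
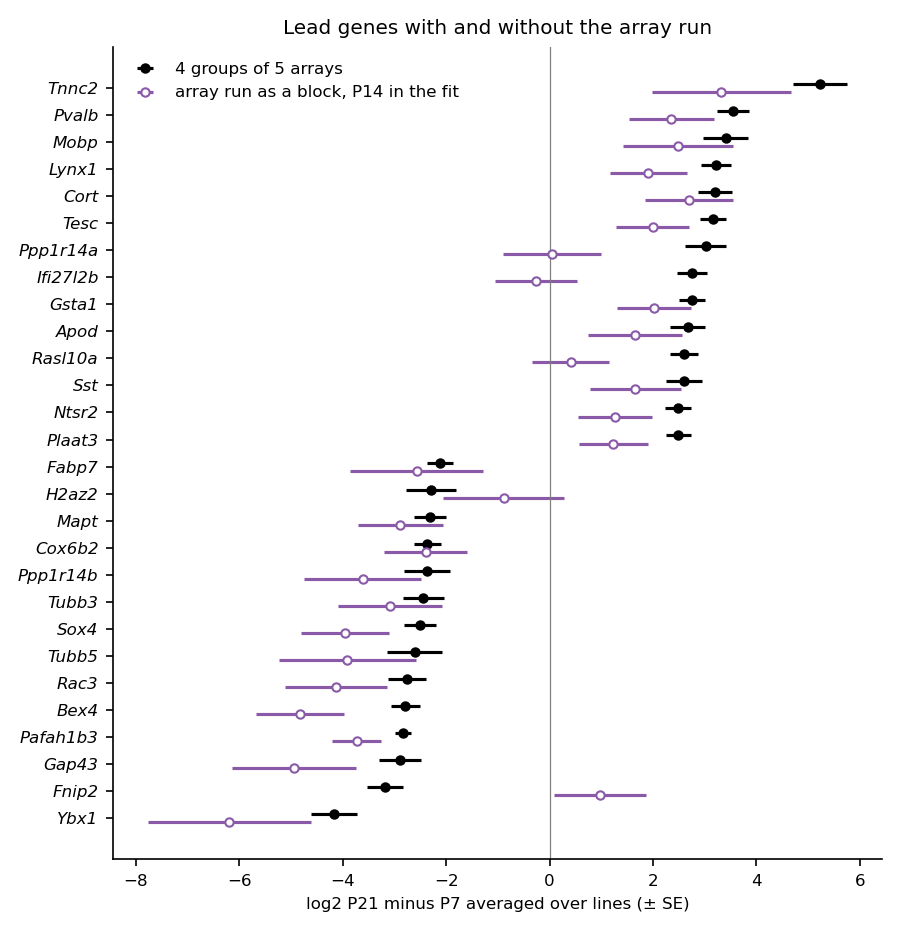
Log2 difference between P21 and P7 averaged over lines (horizontal axis, ± SE) for the 14 lead genes that rose and the 14 that fell, in the fit of 4 groups of 5 arrays (filled) and in the run-block fit (open). Of the 28 genes 26 keep their sign, and Ifi27l2b and Fnip2 change it. In the run-block fit 2 of the 28 were called, Pafah1b3 and Bex4.

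Markers of other cells and regions that a dissection could carry along were followed beside these groups. Blood cell genes rose in 5 of 10 cases with 0 lower, and all 10 differences were above 0. The hemoglobin gene Hba-a2 went from 24854 to 38920 at P7 to 38920 to 48675 at P21, a rise of 0.54 ± 0.11 (adjusted p = 0.00276), and Hbb rose by 0.94 ± 0.18. The near-identical alpha globin genes share sequence, so their rows are not separate evidence. Without the 5 arrays of lowest weight, 2 of these genes rose, and without array 3 alone, 3 rose. The summed intensity of the list was 64377 to 116692 at P7 and 110840 to 136345 at P21. The part of blood in the microglial and antigen presentation genes was not tested.

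Of 8 genes of choroid plexus and ependyma 1 rose, Rarres2 (chemerin) at 1.77 ± 0.29, with a run-block value of -0.10. Ttr, the defining transcript of the choroid plexus, differed by -0.22 ± 0.91 and ran from 156 to 23979 at P7 and from 104 to 45096 at P21, so single arrays were high at both ages. The summed intensity of the list ran from 846 to 25417 at P7 and from 928 to 46501 at P21. Of 19 genes of the meninges and matrix 2 fell (10.5% against 4.35% of all genes), Igfbp2 at -1.20 ± 0.29 and the collagen gene Col1a2 at -1.10 ± 0.35. Col1a1 and Col3a1 differed by 0.37 ± 0.29 and -0.23 ± 0.25. Of 18 endothelial and mural genes 1 rose (5.56% against 6.17% of all genes), Vtn at 0.62 ± 0.16, with a run-block value of -0.48. Of 16 genes of striatum and other forebrain regions 1 fell (6.25% against 4.35% of all genes). It was the vasopressin gene Avp, at -0.84 ± 0.17 and with a run-block value of 0.59. The striatal genes Drd2 and Ppp1r1b differed by -0.23 ± 0.15 and 0.08 ± 0.23.

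Some calls near the threshold were lost when a single array was left out. Without array 25, the limma adjusted p was 0.0823 for Neu4, 0.0803 for Cacna1b, 0.0761 for Cacna1h and 0.0599 for Hsd11b1. Without array 26 it was 0.0964 for Col1a2, 0.0735 for Smarca4, 0.0709 for Slc17a7 and 0.0578 for Sox11. Without array 28 it was 0.0711 for Sema3a and 0.0646 for Napa, and without array 27 it was 0.0563 for Mdk. Bcl11b reached 0.0873 without array 3, Fdps 0.0733 without array 8, Idh3g 0.0923 without array 9 and Mdh1 0.0636 without array 10. These are the largest values for each gene, and other single arrays also took most of these genes past the threshold. Among the genes named after their values were seen, Qdpr, Rnd2, Calb2, Tmem119 and Tpm2 also lost the call without at least 1 array. Without the 5 arrays of lowest weight the adjusted p was 0.0823 for Mcm6, 0.0822 for Neto1, 0.124 for Crhr1, 0.0668 for Btg2 and 0.0534 for Hba-a2, and Sox11, Sema3a and Idh3g were not called there either.

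The step from P7 to P21 was then taken in each line alone, with 5 arrays per group. In HR 399 rows were called (2.15%), 176 higher (0.948%) and 223 lower (1.2%). The increases outnumbered the decreases when array 1 was left out (209 and 169), when array 2 was (229 and 204) and when array 23 was (216 and 167). In LR 1161 were called (6.25%), 712 higher (3.84%) and 449 lower (2.42%), and quantile normalization gave 548 higher and 540 lower. Leaving out array 9 left 726 LR calls, leaving out array 27 left 751 and leaving out array 28 left 766, while leaving out the 5 HR arrays of lowest weight gave 2134. In both lines 229 rows were called, all 229 in the same direction, which was 57.4% of the HR calls and 19.7% of the LR calls. The counts of the lines do not show that the steps differ. The difference of the steps itself was past the threshold in 0 of 18564 rows (0.0%), with a smallest adjusted p of 0.514 by limma, while 1123 rows (6.05%) had an unadjusted p under 0.05. The median SD of a row was 0.40 in both HR groups, 0.34 in LR at P21 and 0.33 in LR at P7.

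All 28 lead genes were called without the 5 arrays of lowest weight and without any single array. Leaving arrays out does not separate array number from age. In the run-block fit 2 of the 28 were called, Pafah1b3 and Bex4. The lead genes moved in the same direction in both lines, and 26 were called in HR and 26 in LR. They were chosen for large called differences averaged over these same arrays. That choice favours agreement between the lines and calls that survive leaving arrays out. Cort rose by 2.31 in HR and 4.09 in LR, and Fabp7 fell by 1.57 in HR and 2.67 in LR on the log2 scale. These were the 2 lead genes with an unadjusted p under 0.05 for the difference of the steps in limma's fit across all rows (0.012 and 0.043). Among all genes with a usable symbol the smallest unadjusted p-values belonged to Parm1, a mucin-like membrane protein, with steps of -0.31 in HR and 1.29 in LR, the insulin-like gene Insl6 with 0.38 and -0.99, the zinc finger gene Zfp771 with 0.10 and 1.48, the integrin-like gene Itgbl1 with 0.55 and -0.98, Spt1 with -0.24 and 1.29, the platelet glycoprotein gene Gp1bb with 0.16 and 2.17, C8h15orf61 with 0.46 and 2.04, and C1qtnf4, of the complement C1q and tumour necrosis factor family, with -0.19 and 1.07. All 8 had an adjusted p of 0.514, so none is shown to differ between the lines.

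**Figure D5:**
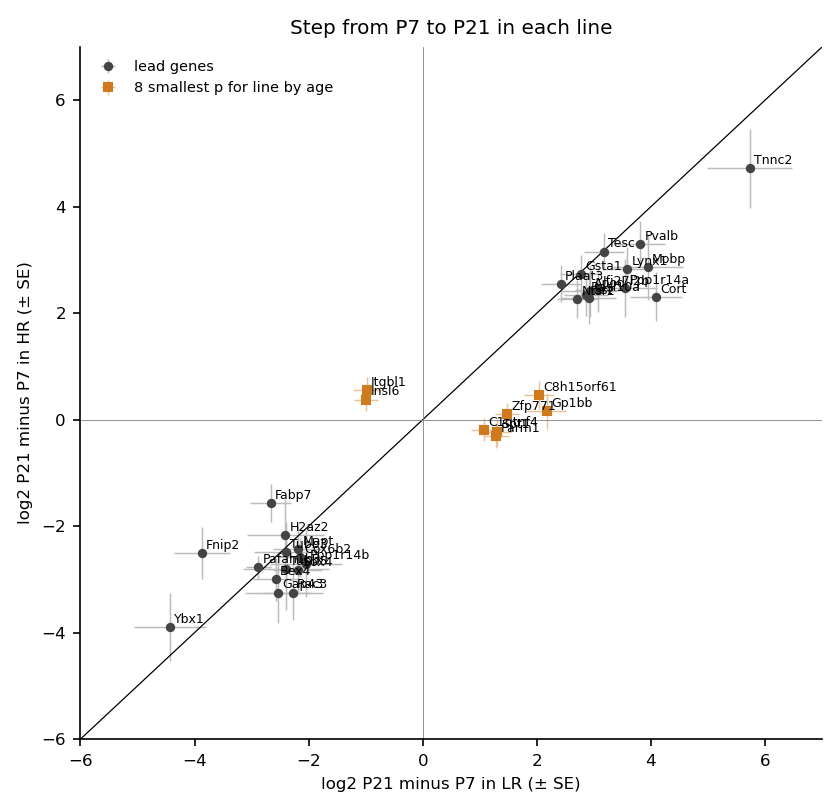
Log2 difference between P21 and P7 in LR (horizontal axis) and in HR (vertical axis), each ± SE with 5 arrays per group, for the 28 lead genes (grey circles) and the 8 genes with the smallest p for the difference of the steps (orange squares), with the line of equality. All lead genes have the same sign in both lines, and Cort lies farthest from the line of equality among them, at 2.31 in HR and 4.09 in LR. The lead genes were chosen for large differences averaged over both lines, which favours the same sign. The orange genes were chosen for the difference of their steps and did not pass the adjusted test.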

How the data were processed

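RNA from dissected tissue of 60 samples was hybridised to NimbleGen arrays with 1 dye, of which 20 entered the comparison. The authors deposited 1 table of normalized intensity per region, with RMA named in the submitters' processing notes, and the intensity in these tables is linear and carries no detection flag. In the deposited series matrix the values of each group, sorted by size, equal those of the table within 0.0001 for all 18564 rows. The series matrix gave the same calls, which its equal values fixed in advance. Array number and sample code come from the deposited column headers. A random-sequence control row was left out and 18564 rows were kept, of which 14334 were named through RefSeq gene IDs or accessions, 3363 by the file's symbol and 867 not at all.

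Log2 of the intensity was fitted with limma 3.58.1 in R 4.3.3 on 4 groups of 5 arrays (line by age). The age difference was averaged over lines, taken within each line, and compared between lines, with Benjamini-Hochberg adjustment over all rows and a threshold of 0.05. For a gene with several rows, the row with the highest mean over the 20 arrays stands for it, and others are mentioned where they disagree. The genes named are the lead genes, up to 6 called members of each list with the smallest p, the first 3 members of each list, and the 8 smallest p-values for the difference between lines. Genes among these that are not reported here were left out and not replaced. Members and lists were chosen with earlier results of these data known. The fit was tested on simulated data with known changes, in which the arrays' residuals were shuffled across ages. That test cannot address array number, which follows age in the real arrays. Depth does not apply to arrays, whose number limits the precision. Replicate numbers of the labels did not pair arrays: 30 correlations of same-numbered deviations had a median of 0.03 and ran from -0.34 to 0.47, with 9 over 0.1.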

Additional observations from a re-analysis of the deposited data

Results flagged for a closer look

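Each gene taken by the rule for named genes was looked at on the log2 scale within each line and age, as 5 arrays. An array was marked if it was highest or lowest and its gap to the nearest other array exceeded 0.71 of the group's log2 range. Intensities below are printed on the linear scale. Of 720 groups 61 had such an array (8.47%), and chance marks about 1 group in 20. No cause of these values was tested.

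On array 29 (LR, P7) the intensity was high at 351 for Folr1 (others 59.7 to 95.6), 441 for Gsta1 (others 92.9 to 142), 220 for Hspb1 (others 103 to 109), 9286 for Lig1 (others 4355 to 5404) and 353 for Mbp (others 77.5 to 113). Also high on array 29 were 3499 for Mobp (others 262 to 432), 783 for Ntsr2 (others 190 to 279), 661 for Ppp1r14a (others 115 to 157), 1732 for Sox2 (others 749 to 948) and 23979 for Ttr (others 850 to 1463). Also high on array 29 were 116 for Vtn (others 80.5 to 86.5). Also low on array 29 were 687 for Gap43 (others 1274 to 1460) and 96.9 for Hba-a3 (others 226 to 307). On array 1 (HR, P21) the intensity was low at 57.6 for Aldh1l1 (others 136 to 162), 98.2 for C1qa (others 344 to 564), 78.2 for C1qb (others 421 to 570), 356 for Cryab (others 767 to 994) and 173 for H2az2 (others 1331 to 2678). Array 1 was low further at 179 for Igf1 (others 597 to 677), 929 for Mdk (others 4010 to 5549), 204 for Ppp1r14b (others 4923 to 8260), 67.8 for RT1-A2 (others 415 to 841) and 4250 for Rpl15 (others 10156 to 10701).

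On array 5 (HR, P21) the intensity was high at 201 for Aspa (others 88.3 to 103), 115 for Col3a1 (others 62.6 to 74.6), 117 for Napa (others 83.8 to 90.2) and 176 for Snap25 (others 84.6 to 93.8). It was also low at 52.9 for Acan (others 61.2 to 64.6) and 61.1 for Htr1a (others 72.0 to 75.9). On array 24 (HR, P7) the intensity was high at 5731 for Hspa8 (others 75.9 to 229), 992 for Mdh1 (others 311 to 398), 119 for Napa (others 59.98 to 70.1) and 13873 for Tubb5 (others 191 to 481). Also low on array 24 were 3462 for Ndufa1 (others 8622 to 11090). On array 2 (HR, P21) the intensity was low at 65.2 for Dclk1 (others 169 to 242), 1302 for Lynx1 (others 2061 to 2252), 2169 for Sst (others 13289 to 25443) and 459 for Tnnc2 (others 4500 to 8825). On array 21 (HR, P7) the intensity was high at 141 for Gadd45b (others 55.5 to 68.8), 77.6 for Grin2a (others 46.7 to 53.3), 79.5 for Slc17a7 (others 54.3 to 59.8) and 532 for Tesc (others 186 to 235).

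On array 30 (LR, P7) the intensity was high at 229 for Col1a1 (others 117 to 141), 3997 for Pcp4 (others 3154 to 3327) and 131 for Vip (others 70.1 to 79.2). Also low on array 30 were 43.4 for Grin1 (others 66.1 to 74.0). On array 8 (LR, P21) the intensity was high at 221 for Cx3cr1 (others 79.2 to 94.3). Array 8 was low further at 1316 for Kcna1 (others 2080 to 2484) and 39.5 for Rprm (others 93.6 to 118). On array 22 (HR, P7) the intensity was high at 381 for Olig1 (others 44.2 to 77.9) and 130 for Snap25 (others 83.8 to 92.0). It was also low at 873 for H2az2 (others 8219 to 9657). On array 9 (LR, P21) the intensity was low at 307 for Adcyap1 (others 664 to 900) and 439 for H2az2 (others 1756 to 3001). On array 10 (LR, P21) the intensity was high at 116 for Mki67 (others 49.3 to 61.3). Array 10 was low further at 9876 for Ndufs7 (others 13158 to 14527). On array 26 (LR, P7) the intensity was high at 76.4 for Cdh5 (others 43.7 to 49.7) and 17103 for Ybx1 (others 9064 to 10597).

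On array 4 (HR, P21) the intensity was low at 16672 for Npy (others 29352 to 34466). On array 23 (HR, P7) the intensity was high at 131 for Dcx (others 51.2 to 67.1). On array 27 (LR, P7) the intensity was high at 61.2 for Dio3 (others 43.2 to 47.8).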

How the results depend on the processing

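Calls averaged over lines numbered 1619 to 2078 with 1 array left out, those in HR 284 to 487, those in LR 726 to 1374 and those for the difference between lines 0 to 0. Array weights gave 2128 calls in LR. The within-group component as a covariate gave 2929 calls averaged over lines, 945 in HR and 1902 in LR. Leaving out arrays 1, 2, 21, 22 and 24, chosen after seeing the data, gave 2134 in LR. Each LR group lies within 1 assumed array run, so with the run as a block the LR step is adjusted by run differences taken from HR arrays alone. HR and LR calls from that fit cannot be compared for that reason. The array run as a block, also chosen after seeing the data, gave 11 averaged over lines, 678 in HR and 0 in LR. It reversed the sign of Ifi27l2b (-0.27), Fnip2 (0.97), Neu4 (-0.65), Nrgn (-0.70), Vip (-0.83), Gabarapl1 (-0.068), Napa (-0.60), Kcnv1 (-0.41), C1qc (-0.25), Aif1 (-0.55), Vtn (-0.48), Rarres2 (-0.10), Avp (0.59), Sdhd (-0.42), Mdh1 (-0.48), Idh3g (0.68), Ndufc2 (-0.13), RT1-A2 (-0.63) and Ddit3 (-0.35), and 97 of 180 gene values kept their sign without passing. The cause was not tested, although that fit's larger standard errors follow from its construction. The planned block within the 20 arrays was not run, because no run holds both ages. Taking the labels' replicate number as a replicate block gave 2070 calls averaged over lines, 450 in HR, 1188 in LR and 0 for the difference between lines. No called gene value changed sign under quantile normalization, median centring, an offset of 32, the filter on dim rows, the fit of all 6 groups, the trended prior, the additive model or the sample code prefix as a random block. Rows near the control row limit what could be seen, since no detection flag comes with the table.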
